A study of Mus musculus with 26 samples.

Results

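The genes described here encode 10 costimulatory receptors and partners of T cells, taken as a fixed list by name from the 35865 genes to which the deposited transcripts could be assigned. The list was chosen with earlier results of these data known. They comprise 6 receptors of the tumor necrosis factor receptor (TNFR) family (Tnfrsf9, Tnfrsf4, Tnfrsf18, Cd27, Tnfrsf1b and Tnfrsf25), the CD28 family receptors Cd28 and Icos, the immunoglobulin-like receptor Cd226 and the TNF family ligand Cd40lg. All 10 were among the 15449 genes with enough counts to be tested.

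Costimulatory receptors deliver the signal that accompanies antigen recognition and sustains the division and survival of T cells. Those of the TNFR family bind trimeric ligands and recruit TRAF adaptors that activate NF-κB, whereas CD28 and ICOS bind ligands of the B7 family and signal through PI3-kinase, with PKCθ also engaged by CD28. In CD8+ T cells CD28, CD27 and CD226 are already present on resting cells, and the receptors encoded by Tnfrsf9, Tnfrsf4 and Icos are known as induced after antigen encounter, which is why the last 3 are used as activation markers.

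RNA was measured in TCRTg101, CD8+ T cells from C57BL/6 mice (6 week old, genotype given as wild type) that all carry one transgenic T cell receptor, derived from a single T cell clone, against an undefined antigen of the C1498 leukemia line. After adoptive transfer, TCRTg101 were sorted from the liver of mice given C1498, at day 7 (early, 2 libraries), at days 13 and 14 (mid, 3 libraries) and at days 16 and 18 (late, 2 libraries), and from spleens at day 7 (2 libraries) and day 14 (1 library). Undivided cells (CTVhi, in which the division dye was not diluted) from leukemia-bearing mice at day 18 gave 1 library. The 3 control libraries came from leukemia-free spleen, 2 of naive cells at day 0 and 1 of cells from untreated mice at day 18. An additional day 0 library made with oligo-dT entered no comparison. Control and undivided cells were from spleen, so leukemia and tissue cannot be told apart in any comparison of liver with control. Nor can division and tissue be told apart between liver and undivided cells. The labels do not say whether libraries came from separate animals or from pools, so the spread between libraries may be partly technical.

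The 14 low-input libraries held 22679819 to 70706990 estimated counts. Cd8a was present at 507 to 1584 CPM (counts divided by library size, scaled between libraries by edgeR's TMM factors), and Cd4 and Foxp3, which mark helper and regulatory T cells, did not exceed 5.35 and 2.98. Markers of other cells moved with the groups. The 8 myeloid markers summed to 874 and 143 CPM in the day 0 controls and to 9.22 in the day 18 control, against 15.3 to 40.9 at the mid and 18.3 to 38.1 at the late time point. The 6 hepatocyte markers summed to at most 0.325 CPM in controls, to 3.11 to 212 at the mid and to 74.3 and 359 at the late time point, highest in the libraries whose titles carry the TG rather than the XC series name. Sums of the 4 CD4 and regulatory T cell markers were 3.93 to 10.4 CPM in controls and 15.9 and 18.3 in late libraries. Of these 4, 2 were called higher in late libraries than in controls (19.9% of all genes were). They were Foxp3 (log2 fold change 2.22, SE 0.73, edgeR adjusted p = 0.0399) and Zbtb7b (3.51, SE 0.87, edgeR adjusted p = 0.0152), whereas Cd4 and Ikzf4 did not pass. B cell markers summed to 12.3 to 44.6 CPM, NK markers to 10.4 to 157 (of which Eomes, also expressed by activated CD8+ T cells, made up 155.5 in the library with the highest sum) and progenitor markers to 1.18 to 16.9 over the libraries. The part of these cells in the results below was not tested. The 2 early liver libraries stood apart from each other. Over the 15439 tested genes other than the 10, library 1 differed from the mean of the mid libraries by 0.775 (root mean square of log2 differences) and from the controls by 1.17, whereas library 2 differed from the mid libraries by 1.44 and from the controls by 0.803.

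Of the 10 genes, 5 are carried by chromosome 4: Tnfrsf1b, Tnfrsf9, Tnfrsf25, Tnfrsf4 and Tnfrsf18. Tnfrsf4 (chr4:156013843-156016612, GRCm38, plus strand) and Tnfrsf18 (chr4:156026164-156028895, plus strand) are neighbours separated by 9551 bases. Cd28 (chr1:60716800-60773359) and Icos (chr1:60977927-61000320) lie on either side of Ctla4, which encodes the inhibitory receptor for the ligands of CD28. Tnfrsf9 (chr4:150914562-150946102, plus strand) has transcripts that begin at several start sites. RefSeq promoters (GRCm38.p6) were at hand for 6 of the 10 genes, with 8 start sites in all. The 250 bases before the RefSeq start are shown for both start sites of Tnfrsf9, for the neighbours Tnfrsf4 and Tnfrsf18, and for Tnfrsf25, the gene that fell. These starts can differ from the gene coordinates given above. The window of Tnfrsf4 ends short of the gene's first base, and that of Tnfrsf18 extends into the gene. Capitals mark TGANTCA, the letters bound by AP-1, and GGG and CC spaced by any 5 bases, a loose form of the letters bound by NF-κB, on either strand.
Tnfrsf9, chr4:150919905-150920154 (plus strand), upstream start, of transcript Tnfrsf9-204: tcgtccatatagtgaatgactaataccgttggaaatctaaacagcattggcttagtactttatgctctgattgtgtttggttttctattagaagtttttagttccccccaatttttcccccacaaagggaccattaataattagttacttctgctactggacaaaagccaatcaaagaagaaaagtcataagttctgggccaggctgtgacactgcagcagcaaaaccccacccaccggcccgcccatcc
Tnfrsf9, chr4:150927749-150927998 (plus strand), downstream start: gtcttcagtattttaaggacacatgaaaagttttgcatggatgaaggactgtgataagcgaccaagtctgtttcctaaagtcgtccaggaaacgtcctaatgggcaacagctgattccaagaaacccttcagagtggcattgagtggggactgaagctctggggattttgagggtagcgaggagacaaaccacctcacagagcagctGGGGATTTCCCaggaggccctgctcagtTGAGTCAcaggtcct
Tnfrsf4, chr4:156013445-156013694 (plus strand): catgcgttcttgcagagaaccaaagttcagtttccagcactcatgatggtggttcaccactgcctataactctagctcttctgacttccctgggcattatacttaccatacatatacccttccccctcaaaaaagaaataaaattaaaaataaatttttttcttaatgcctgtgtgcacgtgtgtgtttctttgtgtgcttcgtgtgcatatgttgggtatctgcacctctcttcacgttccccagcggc
Tnfrsf18, chr4:156026072-156026321 (plus strand): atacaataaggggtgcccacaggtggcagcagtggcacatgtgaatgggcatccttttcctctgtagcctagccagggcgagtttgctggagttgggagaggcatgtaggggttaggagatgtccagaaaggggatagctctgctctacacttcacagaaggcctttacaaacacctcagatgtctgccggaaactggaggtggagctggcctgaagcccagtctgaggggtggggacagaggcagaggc
Tnfrsf25, chr4:152115684-152115933 (plus strand): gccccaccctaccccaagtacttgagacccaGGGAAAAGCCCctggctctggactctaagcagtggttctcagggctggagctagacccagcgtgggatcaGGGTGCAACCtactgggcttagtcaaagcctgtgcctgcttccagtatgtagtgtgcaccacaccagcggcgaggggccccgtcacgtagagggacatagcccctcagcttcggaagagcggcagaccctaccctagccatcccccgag
TGANTCA was found in 1 of the 8 promoters, at the downstream start of Tnfrsf9, and in 6.75% of 32851 mouse promoters of the same length. The spaced GGG and CC were found in 5 of the 8 and in 45.8% of all. The downstream start of Tnfrsf9 had both, which do not overlap. Neither was found at its upstream start or before Tnfrsf4 and Tnfrsf18, which says only that these letters are not in these windows.

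The first question was which receptors differed between TCRTg101 from leukemic livers and control cells. In late libraries 7 of the 10 genes were higher than in controls (Tnfrsf4, Tnfrsf9, Cd40lg, Tnfrsf1b, Icos, Tnfrsf18 and Cd28), Tnfrsf25 was lower, and Cd27 and Cd226 did not pass the test (edgeR, adjusted p under 0.05). Of all genes tested, 19.9% were called higher and 14.3% lower in this comparison. In mid libraries the same 7 genes were higher and Tnfrsf25 lower, against 17.5% and 11.8% of all genes. The median log2 fold change of the 10 genes was 2.04 in late and 1.41 in mid libraries, beside −0.04 and −0.07 over all genes tested. Because the 10 genes were chosen with earlier results of these data known, their excess over all genes is not independent of that choice. When library totals replaced the TMM factors, the split in either comparison was 6 higher and 2 lower, because Cd28 no longer passed and Cd226 did. Counted by ranges, 6 genes had every late library above every control (27.8% of all genes did) and 2 had every late library below (28.2%), while in mid libraries 6 were above (20.9%) and 1 below (21.2%). Both comparisons share the control libraries. In bulk RNA, fewer cells with a transcript and less of it per cell cannot be told apart.

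**Figure D1:**
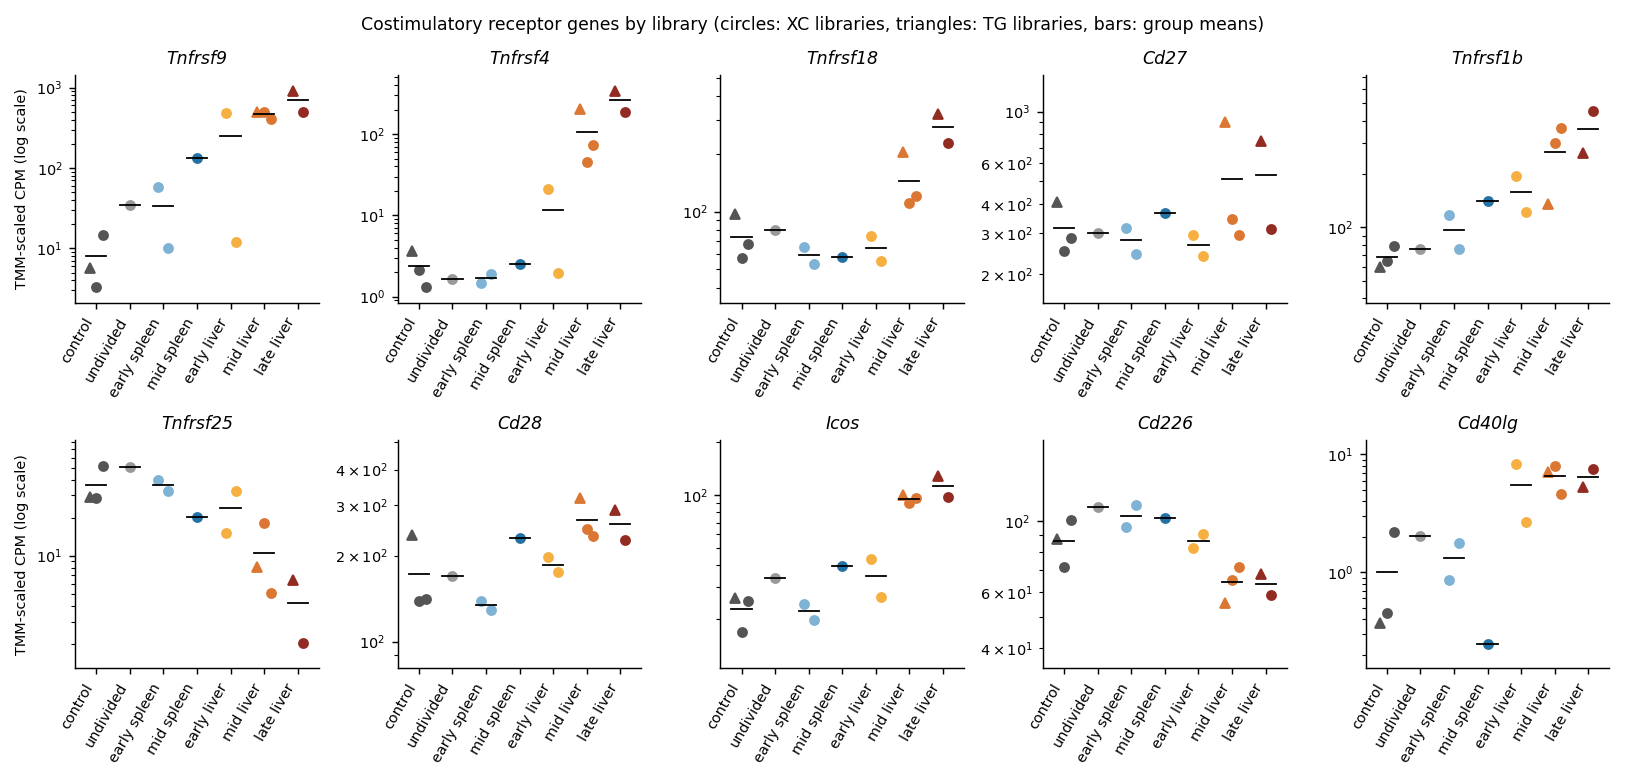
Level of each gene in each of the 14 low-input libraries, as TMM-scaled CPM on a log axis, with circles for XC and triangles for TG libraries and a bar at each group mean. Tnfrsf9 was at 3.34 to 14.7 CPM in controls and at 410 to 908 in mid and late liver libraries, whereas Tnfrsf25 went from 28.6 to 51.8 CPM in controls to 2.04 and 6.36 in late libraries.

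Tnfrsf9 encodes 4-1BB (CD137), a receptor induced on CD8+ T cells by antigen. Its level was 5.78, 3.34 and 14.7 CPM in control libraries 1 to 3 and 34.8 CPM in undivided cells. In spleens of leukemia-bearing mice it was 57.6 and 10.1 CPM at day 7 and 134.7 CPM at day 14. In liver it was 487 and 11.9 CPM at the early, 495, 492 and 410 at the mid, and 908 and 491 CPM at the late time point. Every mid and late library was thus above every other library except early liver library 1. The log2 fold change was 6.44 (SE 1.51, edgeR adjusted p = 0.0164) for late and 5.88 (SE 1.41, adjusted p = 0.0210) for mid liver against control. Within the TG series the log2 ratio of late to control (means of CPM plus 0.5) was 7.18, and within the XC series it was 5.69. Series and day cannot be told apart in these ratios, here and below. The late library was from day 18 in TG and day 16 in XC. Controls were from day 0 in TG and from days 0 and 18 in XC.

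Tnfrsf4 encodes OX40, another induced receptor, best known from CD4+ T cells. It was low but detected in controls, at 3.61, 2.11 and 1.33 CPM (241, 108 and 41 counts), and stayed at 1.46 to 2.55 CPM in undivided cells and in all 3 spleen libraries of leukemia-bearing mice. In early liver libraries it was 21.3 and 1.98 CPM. The mid liver libraries held 203, 45.1 and 73.7 CPM and the late ones 337 and 189 CPM. The mid and late ranges overlapped with each other and were above all other libraries. Log2 fold changes against control were 6.64 (SE 0.88, adjusted p = 0.00451) in late and 5.36 (SE 0.81, adjusted p = 0.0122) in mid libraries.

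Tnfrsf18 encodes GITR, whose gene lies downstream of Tnfrsf4. It was already expressed in controls, at 97.2, 57.1 and 67.5 CPM, and its levels in undivided, spleen and early liver libraries, 53.2 to 79.8 CPM, were within or just below that range. It rose to 204, 111 and 120 CPM in mid and to 324 and 227 CPM in late libraries. The log2 fold change was 1.80 (SE 0.20, adjusted p = 0.00294) in late and 0.95 (SE 0.18, adjusted p = 0.0129) in mid libraries. Among the 10, Tnfrsf18 alone had every late library above every mid library, which held for 8.03% of all genes, and none of the 10 had every late library below (6.93% of all genes). That difference of 0.85 (SE 0.19) had an unadjusted p of 0.00129 and an adjusted p of 0.843. An exon of Tnfrsf18 overlaps an antisense gene, Gm16008, for which no value was at hand, and whether the counting used strand is not given in the sources used here.

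Tnfrsf1b encodes TNFR2, the TNF receptor without a death domain. Control libraries held 59.97, 65.1 and 79.1 CPM, and the early liver libraries 196 and 122 CPM. The mid libraries held 136, 301 and 363 CPM and the late ones 264 and 455 CPM, in both cases lowest in the TG library. Log2 fold changes against control were 2.46 (SE 0.30, adjusted p = 0.00313) in late and 1.86 (SE 0.28, adjusted p = 0.0116) in mid libraries. The day 14 spleen library, at 141 CPM, was also above all controls, but with a single library it did not pass the test (adjusted p = 0.840).

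Cd27, the receptor for CD70 that resting T cells carry, did not pass either test. It was 406, 251 and 285 CPM in controls, 902, 346 and 295 in mid and 749 and 313 in late libraries. The high values were all from TG libraries, where the log2 ratio of late to control was 0.88, against 0.23 in the XC series.

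Tnfrsf25, which encodes the death domain receptor DR3, was the gene of the set that fell. It was 29.3, 28.6 and 51.8 CPM in controls, 50.2 in undivided cells, 39.7 and 32.3 in day 7 spleen and 20.4 in day 14 spleen. Liver libraries held 15.3 and 32.3 CPM at the early, 8.07, 18.1 and 5.08 at the mid and 6.36 and 2.04 (292 and 72 counts) at the late time point. The log2 fold change was −3.14 (SE 0.76, adjusted p = 0.0162) in late and −1.81 (SE 0.58, adjusted p = 0.0466) in mid libraries, and no mid or late library reached the lowest control. The mid difference passed in only 6 of 16 alternative settings, over which it was between −2.64 and −1.41. In the TG and XC series the log2 ratio of late to control was −2.12 and −4.00.

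Icos, the CD28 relative induced by activation, was 26.1, 16.7 and 25.0 CPM in controls. It was 99.9, 89.8 and 96.9 CPM in mid and 129 and 97.4 CPM in late libraries, all above every control. Undivided cells held 33.9, the day 14 spleen 39.8 and the early liver 43.4 and 26.3 CPM, all between the controls' mean and the mid libraries. Log2 fold changes were 2.27 (SE 0.25, adjusted p = 0.00294) in late and 2.09 (SE 0.23, adjusted p = 0.00940) in mid libraries, with within-series ratios of 2.28 (TG) and 2.20 (XC) for late liver.

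Cd28 itself moved little. Controls held 236, 138 and 141 CPM, mid libraries 318, 248 and 234 and late libraries 289 and 227 CPM, so that control library 1 lay within the range of the late libraries. The log2 fold change of 0.53 (SE 0.18, adjusted p = 0.0400) in late libraries passed in 3 of 15 alternative settings, and that of 0.66 (SE 0.16, adjusted p = 0.0169) in mid libraries passed in 7 of 16. By the deposited TPM (which account for transcript length) the late mean was below the control mean, at 41.1 ± 7.14 (SD, n = 2) against 45.9 ± 12.9 (SD, n = 3).

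Cd226, which encodes DNAM-1, the receptor for CD155, had values of 87.6, 71.5 and 100.3 CPM in controls, 55.2, 65.4 and 71.7 in mid and 68.2 and 58.6 in late libraries. Both late libraries were below every control, which held for 28.2% of all genes, but log2 fold changes of −0.44 (SE 0.21, adjusted p = 0.121) in late and −0.43 (SE 0.18, adjusted p = 0.0947) in mid libraries did not pass. Undivided and spleen libraries held 95.3 to 112 CPM.

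Cd40lg, the ligand through which helper T cells act on B cells and dendritic cells, had the lowest mean TPM of the 10 in controls. In late libraries Tnfrsf25 was lower by TPM (2.10 and 1.33, against 2.32 and 5.28). By CPM late library 1 had the other order (6.36 for Tnfrsf25 and 5.31 for Cd40lg). Cd40lg was 0.375, 0.449 and 2.18 CPM in controls (25, 23 and 67 counts) and 7.15, 8.02 and 4.64 CPM in mid and 5.31 and 7.49 CPM in late libraries. Early liver libraries held 8.31 and 2.70 CPM, both above every control. In the day 14 spleen it was 0.245 CPM (9 counts). Log2 fold changes were 2.89 (SE 0.78, adjusted p = 0.0194) in late and 2.90 (SE 0.73, adjusted p = 0.0189) in mid libraries, on small counts.

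**Figure D2:**
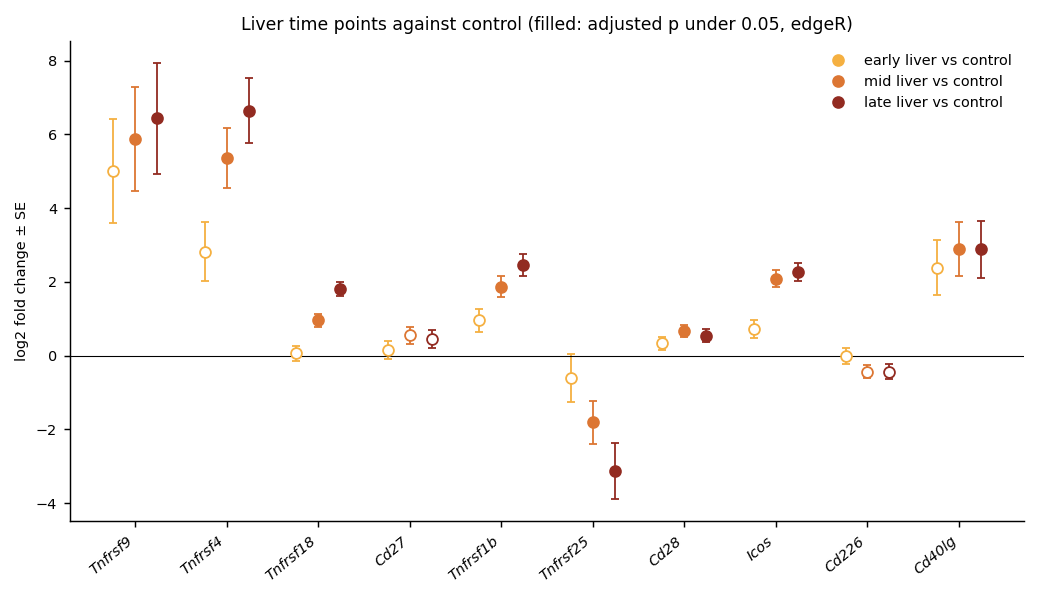
Log2 fold change against control with its standard error (edgeR) for the early, mid and late liver libraries, filled where the adjusted p was under 0.05. The 8 filled genes are the same at the mid and late time points, from −3.14 for Tnfrsf25 to 6.64 for Tnfrsf4 in late liver, and no early point is filled.

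These calls depended on single libraries. In the late comparison 8 genes passed, and this count fell to 4 without control library 1 (Tnfrsf4, Tnfrsf18, Tnfrsf1b and Icos), to 5 without late library 1 and to 0 without late library 2, which left 1 library in the group. Genome-wide, the number of calls fell from 5286 to 1382, 687 and 0 in the same fits. In the mid comparison the count was 0 without control library 1, control library 2 or mid library 1, and 1 (Icos) without mid library 3, with 0 to 32 calls among all genes. With the XC libraries alone no gene of the set passed, and 8 and 0 of all genes did in the late and mid comparisons. The log2 fold changes kept their direction in all of these fits, and that of Tnfrsf4 in late liver was between 6.28 and 6.90 over 15 alternatives, that of Tnfrsf18 between 1.49 and 1.90 and that of Icos between 1.95 and 2.41. Wider ranges were those of Tnfrsf9 (5.74 to 7.24), Tnfrsf25 (−4.34 to −2.18) and Cd40lg (2.34 to 3.94).

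The next question was when these differences appeared. At day 7, none of the 10 genes passed in liver against control by edgeR, nor did any other gene (0% called, 1677 genes with an unadjusted p under 0.05). Of the 10, 5 had an unadjusted p under 0.05: Tnfrsf9, Tnfrsf4, Tnfrsf1b, Icos and Cd40lg. DESeq2 called Tnfrsf9 and Tnfrsf4 and 2.55% of all genes. The 2 libraries gave opposite pictures for Tnfrsf9 and Tnfrsf4. Library 1 was 487 and 21.3 CPM for the pair, and library 2, at 11.9 and 1.98 CPM, was inside the range of the controls for both. Without library 2, these 5 genes passed, with log2 fold changes of 5.98 (SE 1.07, adjusted p = 0.0191) for Tnfrsf9 and 3.68 (SE 0.35, adjusted p = 0.000404) for Tnfrsf4, a fit in which the remaining library is assumed to vary like those of other groups. Without library 1 none passed, and the log2 fold changes were 0.63 and 0.26. In library 1 Tnfrsf9 was as high as in the mid libraries, whereas Tnfrsf4, at 21.3 CPM, was below the lowest of them, Icos (43.4 CPM) was below 89.8 CPM and Tnfrsf18 (74.7 CPM) was within the range of the controls.

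From mid to late liver none of the 10 passed by edgeR or DESeq2 (0% of all genes by edgeR, with 767 at an unadjusted p under 0.05, and 0.343% by DESeq2). The largest differences were 1.28 (SE 0.73) for Tnfrsf4 and −1.33 (SE 0.72) for Tnfrsf25, both within 2 SE.

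In spleen, neither day 7 nor day 14 libraries of leukemia-bearing mice had a gene of the set past the threshold against control (0% of all genes at day 7, with 970 at an unadjusted p under 0.05, and 0.00647% at day 14). DESeq2 called none of the 10 in either. At day 14 Tnfrsf9 was 134.7 CPM, above all 3 controls, with a log2 fold change of 4.12 (SE 1.504, adjusted p = 0.840), while Tnfrsf4 (2.55 CPM) and Tnfrsf18 (58.0 CPM) were at control levels. Liver against spleen at the same time gave no call among the 10 by edgeR. For the mid time points the spleen side was the 1 library of day 14. It held 9 counts of Cd40lg (0.245 CPM, below every control) and 94 counts of Tnfrsf4, so the differences of these genes rest on small counts. At mid time points (0.00647% of all genes called by edgeR) 6 of the 10 had an unadjusted p under 0.05, as had 897 of the 15449 genes, among them Cd40lg with a log2 difference of 4.99 (SE 1.34) and Tnfrsf4 with 4.72 (SE 1.31), the 2 that DESeq2 called (with 0.11% of all genes). At day 7 (0% of all genes by edgeR, with 1391 at an unadjusted p under 0.05) DESeq2 called Tnfrsf4 of the 10, and 0.362% of all genes. The interaction of tissue and time gave no call among the 10, with 0.00647% of all genes called.

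Undivided cells from leukemia-bearing mice gave the lowest number of differences from control, with no gene called by edgeR (0%, 173 at an unadjusted p under 0.05) or DESeq2. Tnfrsf9 was 34.8 CPM, above the highest control, with a log2 fold change of 2.17 (SE 1.52, adjusted p = 1). Tnfrsf4 (1.66 CPM), Tnfrsf18 (79.8 CPM) and Cd27 (301 CPM) were within the range of the controls. Late liver against undivided cells gave no edgeR call (0%, with 3748 genes at an unadjusted p under 0.05), although 6 of the 10 had an unadjusted p under 0.05 and the lowest adjusted p was 0.0718. DESeq2 called 5 of them (Tnfrsf4, Tnfrsf18, Tnfrsf1b, Tnfrsf25 and Icos) and 1938 of all genes. The log2 differences were 6.63 (SE 1.47) for Tnfrsf4 and 1.59 (SE 0.37) for Icos. The undivided side was 1 library from spleen, with 50 counts of Tnfrsf4, so division and tissue cannot be told apart here.

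Levels of different genes were compared per length, with the deposited TPM. In control libraries Cd27 was the most abundant, at 221 ± 30.4 TPM (SD, n = 3), followed by Cd226 (72.1 ± 11.6), Tnfrsf18 (65.2 ± 7.09) and Cd28 (45.9 ± 12.9), and Cd27 made up 45.6% to 50.1% of the summed TPM of the 10 genes. Tnfrsf9 made up 0.490% to 2.17%. In late libraries the order was Tnfrsf9 (292 ± 23.4 TPM, n = 2), Cd27 (236 ± 48.4), Tnfrsf18 (184 and 226 in the 2 libraries) and Tnfrsf4 (166 ± 1.92). The means of Tnfrsf9 and Cd27, and of Cd27 and Tnfrsf18, differed by less than their summed SDs. By means, Cd28, at 41.1 ± 7.14 TPM, was then below Tnfrsf1b (70.2 ± 50.2), which in controls had been below it at 16.8 ± 4.84. This order held in late library 2 (46.1 against 105.7 TPM) but not in late library 1 (36.0 against 34.8 TPM). The sum over the 10 genes was 392 to 509 TPM in controls, 556 in undivided cells, 519.5 to 689.5 in the spleen of leukemia-bearing mice, 926 and 531 in early, 889 to 989 in mid and 1031 and 1133 in late liver libraries. Early liver library 1 was again with the mid libraries and library 2 near the controls.

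**Figure D3:**
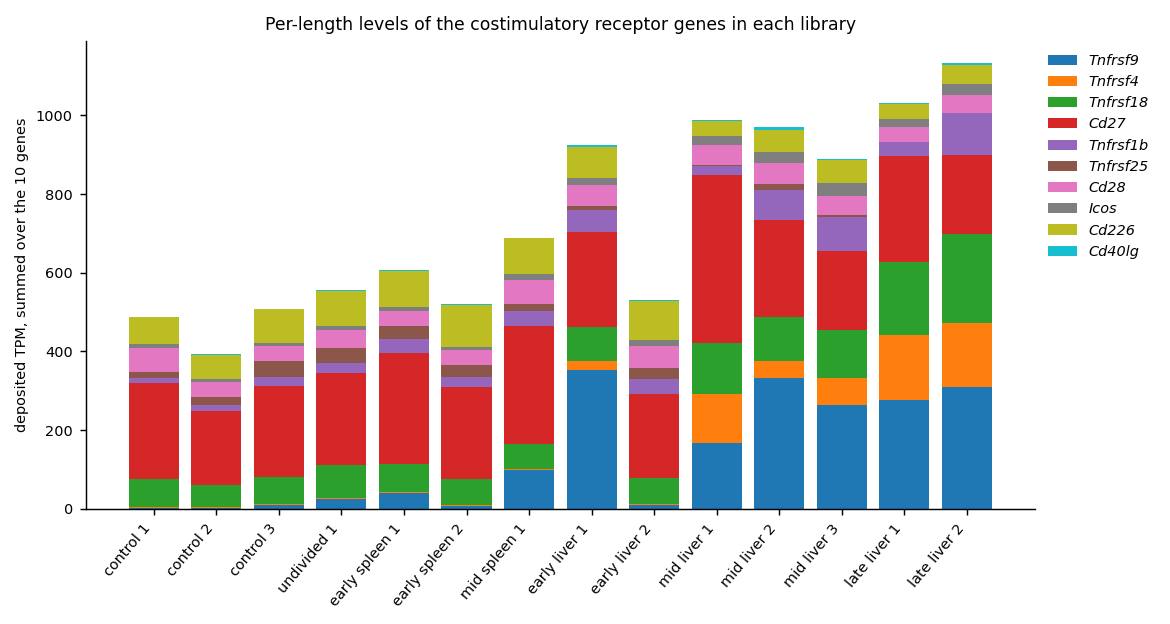
Deposited TPM of the 10 genes stacked for each of the 14 libraries. The total was 392 to 509 TPM in controls, where Cd27 made up the largest part, and 889 to 1133 in mid and late liver libraries, where Tnfrsf9 made up 16.9% to 34.2%.

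The deposited values are per transcript, so the forms of each gene could be described, without a test, since the division of reads between overlapping transcripts is an estimate. 4-1BB exists as a membrane receptor and as a soluble form that lacks the membrane-spanning part. The exon of 45 codons at chr4:150935422-150935556 (GRCm38, plus strand) encodes that part and is skipped in transcripts Tnfrsf9-202 and Tnfrsf9-204. Its sequence is shown because it separates the forms.
Tnfrsf9 skipped exon: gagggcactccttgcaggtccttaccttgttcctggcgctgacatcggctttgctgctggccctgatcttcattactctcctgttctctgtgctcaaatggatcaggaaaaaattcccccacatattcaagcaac
Transcripts that skip it held 34.2% and 30.4% of Tnfrsf9 counts in late liver and 19.9%, 18.1% and 26.4% in mid liver libraries. They held 131 of 1050 counts in undivided cells, 12.4% and 31.1% (of 278 counts) in early spleen, 12.4% in the day 14 spleen, 18.2% (of 381 counts) in early liver library 2 and 10.8% in early liver library 1, in which Tnfrsf9 was as abundant as in mid libraries. In controls the share was 4.24% to 23.5%, on 171 to 452 counts of the gene. Most of the late share was in Tnfrsf9-204, which begins at the upstream start shown above (as does, nearby, Tnfrsf9-201, which contains the exon), with 27.4% and 19.7% of counts (11404 and 3403) in late, 9.41% to 16.0% in mid and 0.713% (140 of 19576 counts) in early liver library 1, but also 28.6% in early spleen library 2, on 278 counts. The membrane form that begins at the downstream start held 53.9% and 45.8% in late libraries.

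For Cd28, the annotated retained-intron transcript (Cd28-203) held 26.8%, 23.4% and 15.8% of the gene's counts in controls, 4.75% to 7.03% in mid and 3.48% and 5.15% in late libraries, with no overlap between controls and these groups. How many of all genes have retained-intron shares that separate in this way was not computed, so nothing particular to Cd28 can be read from it. Undivided cells were at 14.5%, the day 14 spleen at 10.6% and the early liver libraries at 10.9% and 16.6%. The protein-coding Cd28-201 went from 73.2% to 84.1% of counts in controls to 96.5% and 94.9% in late libraries. Retained-intron transcripts of Cd27 held 11.6% to 13.8% in controls, 4.44% to 7.30% in mid and 3.56% and 4.98% in late libraries. That of Tnfrsf18 held 4.74% to 11.2% in controls, 3.41% to 3.87% in mid and 2.78% and 4.26% in late libraries, but also 1.80% in early spleen library 2. For Cd226 the share was 2.83% to 6.14% in controls and 3.32% and 4.78% in late libraries, which overlapped. Of the 2 main coding transcripts of Tnfrsf18, Tnfrsf18-203 held 33.5%, 43.0% and 42.3% in controls and 52.6% and 56.6% in late libraries. In mid libraries it held 51.2%, 40.5% and 45.6%, which overlapped with the controls.

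**Figure D4:**
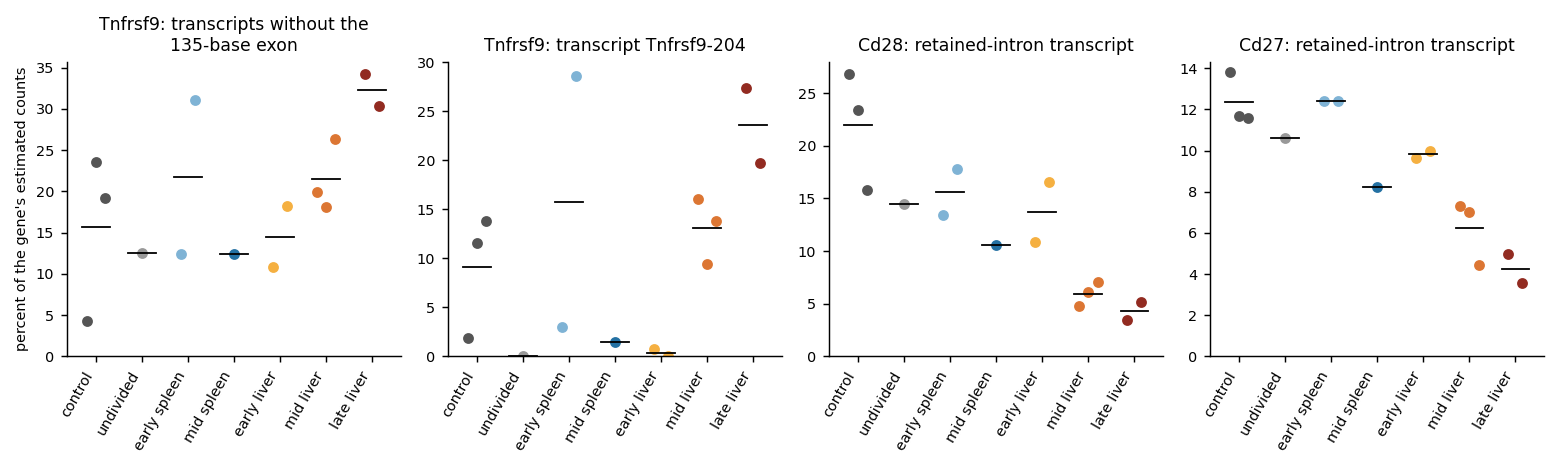
Share of a gene's estimated counts, in percent, held by the Tnfrsf9 transcripts without the membrane-spanning exon, by Tnfrsf9-204 alone and by the retained-intron transcripts of Cd28 and Cd27, for each low-input library with a bar at the group mean. Late libraries were at 30.4% and 34.2% in the first panel and at 3.48% and 5.15% in the third, where controls were at 15.8% to 26.8%.

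The partners of these receptors were then read from lists. Of 13 ligand genes (with Cd40, the receptor for CD40 ligand, in the list), 10 were tested, and in late libraries 2 were higher and 1 lower (19.9% and 14.3% of all genes were), with a median log2 fold change of 0.45 beside −0.04 over all genes. In mid libraries 4 were higher (Tnfsf9, Tnfsf4, Tnf and Lta) and 2 lower (Icosl and Cd40), against 17.5% and 11.8% of all genes, with a median of 0.17 beside −0.07. Tnfsf9, the ligand of 4-1BB, rose from 0.585 to 2.46 CPM in controls to 12.0 and 32.2 in the late ones, a log2 fold change of 3.33 (SE 0.77, adjusted p = 0.0131). Tnfsf4, the ligand of OX40, was at 0 to 0.150 CPM in controls, about the limit of 3 counts, and at 6.71 and 6.87 CPM in the late ones (adjusted p = 0.00806). Cd70, the ligand of CD27, did not have enough counts to be tested; it had 0 counts in all controls, which allows up to 3 counts (0.0462 to 0.107 CPM of the library total), and 3.43 and 4.77 CPM in late libraries. Tnf, the ligand of TNFR2, was 2.46 to 13.6 CPM in controls, 32.2 to 95.2 in mid (adjusted p = 0.0185) and 21.9 and 39.8 in late libraries (adjusted p = 0.0803). Icosl, the ligand of ICOS, fell from 6.10 to 11.04 CPM in controls to 1.07 and 2.24 in late libraries (adjusted p = 0.0270). Icosl and Cd40 are also expressed by myeloid cells and B cells, and myeloid markers were highest in the day 0 controls (874 and 143 CPM), whose part in these falls was not tested.

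Downstream of the TNFR family, 16 genes of TRAF adaptors and NF-κB were read. Late libraries had 4 higher (Bcl2l1, Nfkb2, Nfkb1 and Tradd), 3 lower (Map3k14, Traf6 and Birc2) and 9 that did not pass, with a median of 0.07 beside −0.04 over all genes, of which 19.9% were higher and 14.3% lower. Mid libraries had 3 higher and 3 lower, against 17.5% and 11.8% of all genes. None of Traf1, Traf2, Traf3 and Traf5, the adaptors that bind these receptors, passed, with log2 fold changes from −0.49 to 0.37. Bcl2l1, which encodes the survival protein BCL-XL, rose by 1.62 (SE 0.45, adjusted p = 0.0241), and Map3k14, which encodes the kinase NIK, fell by 1.604 (SE 0.41, adjusted p = 0.0171). Of 12 genes of CD28 signalling, 2 were higher in late libraries (Akt1 and Akt2) and 3 lower (Pik3r1, Malt1 and Prkcq), beside 19.9% and 14.3% of all genes, with a median of −0.29, and in mid libraries 0 were higher and 3 lower (Pik3r1, Pik3cd and Prkcq), beside 17.5% and 11.8%, with a median of −0.38. Pik3r1, a regulatory subunit of PI3-kinase, had a log2 fold change of −1.59 (SE 0.35, adjusted p = 0.0103) and Prkcq, which encodes PKCθ, one of −0.93 (SE 0.29, adjusted p = 0.0342) in late libraries.

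Inhibitory genes that share ligands with the set included Ctla4, which competes with CD28, and Tigit and Cd96, which compete with CD226. In late libraries 2 of the 4 were higher (19.9% of all genes) and in mid libraries 1 was, Tigit (17.5% of all genes), where Ctla4 had an adjusted p of 0.0868. Tigit went from 0.844 to 3.31 CPM in controls to 88.2 and 218 CPM (log2 fold change 6.09, SE 0.70, adjusted p = 0.00323) and Ctla4 from 1.82 to 28.5 CPM to 134 and 294 CPM (3.91, SE 1.20, adjusted p = 0.0393). Cd96 (−0.08, SE 0.28, adjusted p = 0.837) and Cd274 (0.19, SE 0.34, adjusted p = 0.675) did not pass. Of 10 other costimulatory receptors, 4 were higher (Tnfrsf8, Crtam, Slamf1 and Slamf6) and 0 lower in late as in mid libraries, beside 19.9% higher and 14.3% lower of all genes in late and 17.5% and 11.8% in mid libraries. The late median was 0.56, beside −0.04 over all genes. Slamf6 changed by 1.28 (SE 0.25, adjusted p = 0.00729), whereas Tnfrsf1a, the death domain partner of Tnfrsf1b in binding TNF, was at −0.38 (SE 0.26, adjusted p = 0.271).

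**Figure D5:**
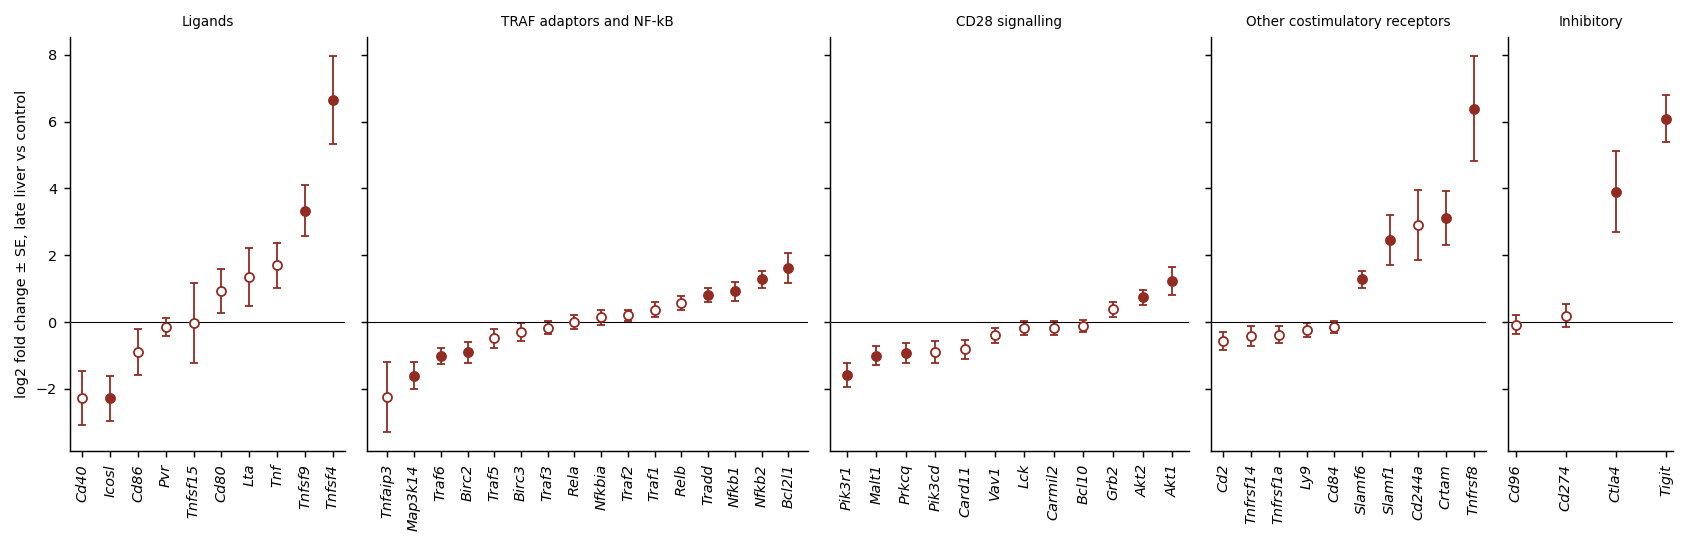
Log2 fold change with standard error (edgeR) in late liver against control for each tested gene of 5 lists, ordered by value within a list and filled where the adjusted p was under 0.05. Tnfsf4 and Tigit are highest among the ligands and the inhibitory genes, and the CD28 signalling list runs from −1.59 for Pik3r1 to 1.23 for Akt1.

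To place each gene among the others, the genes most like it (2 for each but Cd27) were found by Pearson's r of log2 CPM over the 14 libraries, as a description, since these libraries share groups and series. For Tnfrsf9 these were Cdca7 (r = 0.978) and Psat1 (0.973), for Tnfrsf4 Ciapin1 (0.987) and Tpi1 (0.977), for Tnfrsf18 Asrgl1 (0.983) and Hmox2 (0.971), and for Icos Zdhhc6 (0.982) and Tpi1 (0.979). Tnfrsf1b was most like Nt5e (0.987) and Myo1c (0.980), and Tnfrsf25 most like Dtx1 (0.965) and Rflnb (0.964). Cd27 was nearest to Dpm2 (0.978), and Cd28 to Nfkb1 (0.921) and Hsp90aa1 (0.920). The weakest likeness was that of Cd226, with Kctd3 (0.897) and Ctso (0.884), and Cd40lg, with Ubxn2a (0.871) and Srfbp1 (0.854). Within the set, the closest pairs were Tnfrsf4 with Icos (r = 0.942), with Tnfrsf18 (0.916), and Tnfrsf9 with Icos (0.913).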

How the data were processed

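TCRTg101 RNA from 14 low-input libraries and 1 oligo-dT library was sequenced by the authors, who quantified transcripts with kallisto (versions, and whether counting used strand, are not given in the sources used here; mm10 and GRCm38 per the labels). The deposited estimated counts (expected counts per transcript) were summed per gene with GENCODE vM21 of GRCm38, which matched 116622 of 118783 transcripts (98.18%), summed over the runs of a library (26 runs, 15 libraries) and rounded. TPM as deposited by the authors, averaged over runs, served for levels between genes. Kallisto divides reads among similar transcripts, an error that no test includes.

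Low genes were left out unless 6 or more libraries held 10 or more counts. edgeR 4.0.16 (quasi-likelihood, robust, two-sided, R 4.3.3) fitted 7 groups and the series (TG or XC, read from the titles and taken as the 2 sequencing batches) to 14 libraries, with TMM factors of 0.724 to 1.22, 6 residual degrees of freedom and Benjamini-Hochberg adjustment over 15449 genes in 10 comparisons. Groups with 1 library are assumed to vary like the others. SE is the log2 fold change divided by the root of F. Libraries of a group differed by more than sampling noise (mean chi-square per gene of 57.5 to 506), so each counted as 1 sample, and replicates, numbered in accession order, were not paired. Counts were simulated for late liver against control (15449 genes), with 100 genes set to a log2 change of 1.5 and 100 to 3. Of these, edgeR called 32% and 66%, DESeq2 58% and 82%. Among the 15249 genes left unchanged, edgeR called 0.0393% and DESeq2 0.302%. The simulation held no series effect, no other group differences and far fewer changed genes than were called in the data. Its rates therefore need not hold for the real comparison. Alternatives were DESeq2 1.42.0, other scalings, filters, libraries and controls, and each replicate left out; the XC libraries alone were added after seeing the data. The named genes were the 10 genes, the genes of the lists and, for each of the 10, the 2 most correlated genes with a mean log2 CPM of at least 5 (prior count 2). Some items under this rule are not reported here, and the list medians and counts leave them out. The 10 genes and the lists were chosen with earlier results of these data known. RefSeq promoter windows came from GRCm38.p6. Depth makes counting error small except for the genes given with counts, intervals and limits cover counting error only, and the number of libraries limits the precision. Python 3.11.15 with pandas 2.3.3 and matplotlib 3.10.9 made tables and plots.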

Additional observations from a re-analysis of the deposited data

Results flagged for a closer look

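In the oligo-dT library of day 0 cells, which no comparison used, 2 of the 10 genes were above all 3 low-input controls as CPM of the library total. Tnfrsf4 was 6.69 (154 counts) against at most 3.71 in the controls, and Icos was 28.0 against at most 27.5. Of the other 8 genes, 2 were within the controls' range and 6 below it. Library type and preparation cannot be told apart in this single library.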

How the results depend on the processing

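With 8 genes called, the mid comparison with control gave 5 without a series term and 0 with the XC libraries alone, and the late comparison (8 genes called) gave 0 with the XC libraries alone. The other comparisons called 0 of the 10. With no filter beyond 1 count (32768 genes) they called 4 in early liver against control (1295 of all genes), 2 in late against mid liver (325), 1 each in early spleen (642), mid spleen (631) and undivided cells (222) against control, 6 in late liver against undivided cells (2217), 3 in early liver against early spleen (984) and 4 in mid liver against mid spleen (758). DESeq2 called 2, 5, 1 and 2 for early liver against control, late liver against undivided cells, and early and mid liver against spleen. Leaving out each replicate gave 0 to 7 genes for late liver, 0 to 8 for mid liver and 0 to 5 for early liver against control, and 0 to 2 for early liver against early spleen. The causes were not tested. Over all genes, late calls went from 5286 to 2927 and mid calls from 4526 to 1762 without the series term, and early liver calls from 0 to 1295 with no filter and 1921 without early liver library 2.

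Of 10 genes in the 3 liver comparisons, 14 alternative values changed sign, all in early liver and none past a threshold: Tnfrsf18 (−0.189 without a series term, −0.005 without control library 2, −0.171 without early liver library 1, at most 0.267 without one library), Cd27 (−0.237 without a series term, −0.010 without control library 1, −0.009 without early liver library 1, at most 0.312 without one library) and Cd226 (0.002 with DESeq2 and with RLE factors, 0.004 without a series term, 0.143 with day 0 controls only, which is the fit without control library 3, 0.028 with both groups only, 0.012 without control library 1, 0.059 without early liver library 1, at lowest −0.175 without one library). The log2 ratio of mean TPM of Cd28, late liver to control, was −0.159. A fit of late liver and undivided libraries only could not be made, and no paired analysis was possible because the labels give no replicate numbers.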
